A study of Mus musculus with 8 samples.

Results

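The HCN genes encode the hyperpolarization-activated, cyclic nucleotide-gated channels that carry the pacemaker current of the heart. This section describes 3 of them, Hcn2, Hcn3 and Hcn4, in the ventricles of newborn mice that lack NAE1 in cardiomyocytes. The genes were found by their symbols in a count table of 40690 distinct genes. They were chosen from the contrast between the genotypes itself, where Hcn2 and Hcn4 had already been seen to differ, so their NAE1CKO and CTL values are given as a description without a test. All 3 passed the filter on low counts together with 13622 genes in total.

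Polyadenylated RNA was sequenced from ventricles collected at postnatal day 1, with 4 libraries from NAE1CKO mice and 4 from littermate controls (CTL). NAE1 is a subunit of the enzyme that activates NEDD8, a ubiquitin-like protein, and so starts its conjugation to target proteins (neddylation). NAE1CKO mice carried a floxed Nae1 allele deleted by Cre under the αMHC promoter, which is active in cardiomyocytes, on a C57BL/6J background shared by both groups. The labels call the controls wildtype, and the sources used here do not say whether they carried Cre or a floxed allele. The tissue holds non-cardiomyocytes in which the promoter is not active. In such bulk samples a gain of cells that express a gene and a gain of its RNA per cell cannot be told apart, and the same holds for a loss. Library titles begin with KO-443 or KO-453 for NAE1CKO and WT-443 or WT-453 for CTL, 2 libraries each, and the labels do not say what that number, called the title number here, stands for.

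Total counts per library ran from 16304420 to 18593509 in NAE1CKO and from 13932821 to 18056322 in CTL. The library WT-453-5 stood apart in that Gm42418, a transcript that overlaps ribosomal RNA sequence, took 12.8% of its counts, against 3.09% to 4.62% in the others. Nae1 was at 11.97 ± 1.24 counts-per-million (CPM) in NAE1CKO and 23.4 ± 0.771 in CTL (mean ± SD, n = 4), a log2 fold change of −0.96 (SE 0.087, adjusted p = 7.18e-06 by edgeR's quasi-likelihood test). CPM here use library sizes scaled by TMM factors. Heart muscle genes were abundant, with 7 genes listed as ventricular cardiomyocyte markers summing to between 57393 and 76408 CPM in all libraries. Most of that sum was Myh6 and Actc1, so it shows heart muscle and does not by itself tell the chamber.

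HCN channels open when the membrane becomes more negative and pass an inward current of sodium and potassium that brings a cell back toward its firing threshold. Binding of cyclic AMP to a domain in the C-terminal tail eases opening, which is a route by which adrenergic and muscarinic signals change heart rate. 4 subunits assemble in one channel. HCN4 is the main subunit of the adult sinoatrial node, opens slowly and responds strongly to cyclic AMP. HCN2 opens faster and is found in ventricle and brain, and HCN3 responds weakly to cyclic AMP. In development the current is present in ventricular cardiomyocytes before birth and declines as they mature.

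The family is closely related in sequence, which bears on whether reads of one gene could be counted for another. The coding stretch of 63 bases around the selectivity filter, where potassium and sodium pass the pore, is shown for this reason. It lies within exon 4 of each gene (GRCm38, sequences of GENCODE M21 transcripts), reads 5′ to 3′ along the transcript and has in capitals the 9 bases that encode the filter's glycine, tyrosine and glycine.
Hcn4, chr9:58855564-58855626, plus strand: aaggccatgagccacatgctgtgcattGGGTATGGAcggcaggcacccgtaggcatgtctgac
Hcn2, chr10:79728932-79728994, plus strand: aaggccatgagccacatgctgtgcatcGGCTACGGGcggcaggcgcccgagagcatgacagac
Hcn3, chr3:89150979-89151041, minus strand: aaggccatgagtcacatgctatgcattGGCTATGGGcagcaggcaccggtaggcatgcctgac
Of the 63 positions, 49 held the same base in all 3 genes, and each gene spelled the filter's 3 codons in its own way. Hcn3 and Hcn4 shared 56 positions, Hcn2 and Hcn4 53, and Hcn2 and Hcn3 51. Over the whole transcripts the longest exact run shared by Hcn2 and Hcn4 was 32 bases and overlaps the stretch above, at chr10:79728926-79728957 and chr9:58855558-58855589.
Shared by Hcn2 and Hcn4: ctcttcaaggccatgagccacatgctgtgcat
Hcn3 and Hcn4 also shared a run of 32 bases at most, Hcn2 and Hcn3 one of 33, and 0 runs of 50 bases were shared by any pair. The sources used here do not state the length of the sequenced reads.

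Hcn4 (ENSMUSG00000032338, chr9:58823412-58863175, plus strand, 1 annotated transcript) had the highest count of the 3 genes in every library. In NAE1CKO it was counted 2056 times in KO-443-3, 2126 times in KO-443-5, 1608 times in KO-453-6 and 2405 times in KO-453-7, which gave 111, 112, 96.7 and 133 CPM. In CTL it was counted 260 times in WT-443-7, 175 times in WT-443-8, 320 times in WT-453-3 and 158 times in WT-453-5, which gave 16.4, 10.8, 18.1 and 12.7 CPM. The groups did not overlap, and the lowest NAE1CKO library lay 5.34 times above the highest CTL library. The means were 112.9 ± 14.8 CPM in NAE1CKO and 14.5 ± 3.36 in CTL (SD, n = 4), a log2 fold change of 2.96 (SE 0.16), or 7.76-fold higher. In CTL, 42.6% of the tested genes had a lower CPM than Hcn4, and in NAE1CKO 89.1%. Of all tested genes, 37 had a higher log2 fold change.

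Hcn2 (ENSMUSG00000020331, chr10:79716634-79736108, plus strand, 2 annotated transcripts) differed the other way. Its counts in NAE1CKO were 73 in KO-443-3, 91 in KO-443-5, 92 in KO-453-6 and 55 in KO-453-7, which is 3.93, 4.78, 5.53 and 3.03 CPM. Its counts in CTL were 101 in WT-443-7, 119 in WT-443-8, 187 in WT-453-3 and 137 in WT-453-5, which is 6.36, 7.31, 10.6 and 10.998 CPM. The groups did not overlap here either, but the margin was narrow, since the lowest CTL library was 1.15 times the highest NAE1CKO library. The 2 WT-453 libraries were the highest of all. The means were 4.32 ± 1.08 CPM in NAE1CKO and 8.82 ± 2.32 in CTL (SD, n = 4), a log2 fold change of −1.03 (SE 0.22), or 2.04-fold lower, and 222 tested genes had a lower log2 fold change.

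Hcn3 (ENSMUSG00000028051, chr3:89146074-89160196, minus strand, 4 annotated transcripts) was barely detected. Its counts in NAE1CKO were 9 in KO-443-3, 19 in KO-443-5, 13 in KO-453-6 and 11 in KO-453-7, which is 0.485, 0.997, 0.782 and 0.606 CPM. Its counts in CTL were 15 in both WT-443-7 and WT-443-8, 11 in WT-453-3 and 9 in WT-453-5, which is 0.945, 0.922, 0.623 and 0.723 CPM. The groups overlapped, with the lowest and the highest library both in NAE1CKO. The means were 0.718 ± 0.223 CPM in NAE1CKO and 0.803 ± 0.156 in CTL (SD, n = 4), and the log2 fold change of −0.16 (SE 0.30) was smaller than its error. At this depth a difference of that size was not detectable. With annotated exons on the opposite strand, the end of Hcn3 overlaps Pklr, which encodes a pyruvate kinase, and since the sources used here do not state whether the counting used strand, their reads cannot be told apart there. Pklr itself had 10 counts in NAE1CKO and 1 in CTL over 4 libraries each and was not tested.

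Of the 3 genes, Hcn4 met the call rule of an adjusted p under 0.05 on the higher side, as did 18.6% of all tested genes, and Hcn2 met it on the lower side, as did 17.6%. In either direction 36.3% of all genes were called, and the groups did not overlap in CPM for 36.5% of them. The genes having been chosen from this contrast, nothing is read from these counts. Without WT-453-5, the library rich in Gm42418, the log2 fold change was 2.90 for Hcn4, −0.91 for Hcn2 and −0.20 for Hcn3.

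**Figure D1:**
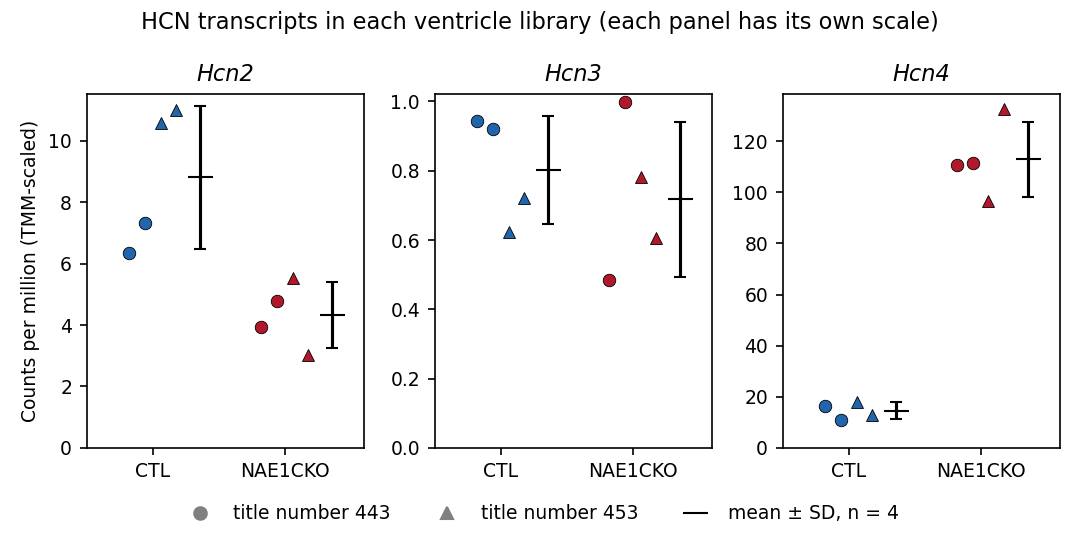
CPM of Hcn2, Hcn3 and Hcn4 in each of the 4 CTL and 4 NAE1CKO libraries, on a separate axis from 0 for each gene. Circles are KO-443 and WT-443 libraries and triangles KO-453 and WT-453 libraries, and the black marks give the mean ± SD (n = 4). Hcn4 lies far higher in NAE1CKO, Hcn2 lies lower with a narrow gap, and Hcn3 overlaps.

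To compare levels between the genes, CPM were divided by the length of each gene's merged exons, 3195 bases for Hcn2, 4154 for Hcn3 and 6118 for Hcn4. In CTL Hcn2 was at 2.76 ± 0.727 CPM per kb, Hcn4 at 2.37 ± 0.549 and Hcn3 at 0.193 ± 0.0376 (SD, n = 4). Hcn2 and Hcn4 did not differ beyond their spread there, and which of them was higher depended on the length used, while both lay above Hcn3. In NAE1CKO the order was Hcn4 with 18.5 ± 2.42 CPM per kb, Hcn2 with 1.35 ± 0.338 and Hcn3 with 0.173 ± 0.0537. These neighbours lay apart by more than their spread.

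The make-up of the pool followed from this. Of the summed CPM per kb of the 3 genes, Hcn4 made up 93.1% in KO-443-3, 91.3% in KO-443-5, 89.2% in KO-453-6 and 95.2% in KO-453-7. It made up 54.7% in WT-443-7, 41.2% in WT-443-8, 46.1% in WT-453-3 and 36.4% in WT-453-5. Hcn4 was the larger part in all NAE1CKO libraries, and in CTL Hcn4 and Hcn2 held shares of similar size. Their order in CTL turned with the length, since division by the coding length in place of the merged exons gave mean CTL shares of 51.7% for Hcn4 and 43.7% for Hcn2.

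Mean shares were 92.2 ± 2.56% for Hcn4 in NAE1CKO and 44.6 ± 7.79% in CTL (SD, n = 4). For Hcn2 they were 6.94 ± 2.34% and 51.6 ± 8.22%, and for Hcn3 0.876 ± 0.301% and 3.81 ± 1.34%. The smaller share of Hcn3 came with levels that overlapped between the groups, because the sum of the 3 genes differed.

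**Figure D2:**
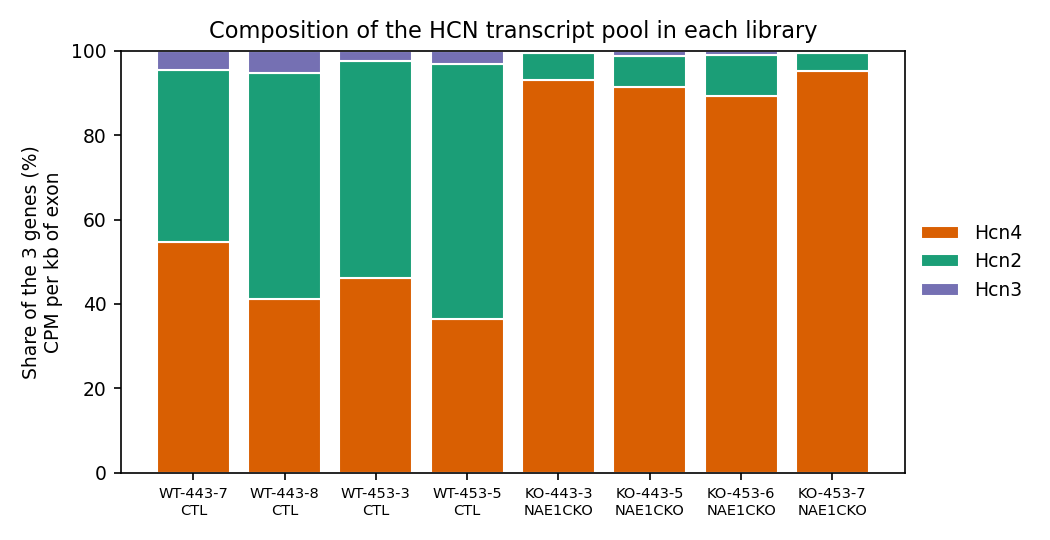
Share of the summed CPM per kb of exon held by Hcn4, Hcn2 and Hcn3 (stacked bars to 100%) in each of the 4 CTL and 4 NAE1CKO libraries. Hcn4 holds 36.4% to 54.7% in CTL and 89.2% to 95.2% in NAE1CKO, and Hcn3 is the thin band at the top.

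The sum of the 3 genes was 19.98 ± 2.09 CPM per kb in NAE1CKO and 5.32 ± 0.939 in CTL (SD, n = 4), 3.76-fold higher. It was not an exchange of equal amounts. The mean level of Hcn4 was 16.1 CPM per kb higher in NAE1CKO and that of Hcn2 1.41 lower. The ratio of Hcn4 to Hcn2 per length was 14.7 in KO-443-3, 12.2 in KO-443-5, 9.13 in KO-453-6 and 22.8 in KO-453-7. It was 1.34 in WT-443-7, 0.768 in WT-443-8, 0.894 in WT-453-3 and 0.602 in WT-453-5. All NAE1CKO ratios lay above all CTL ratios, and the mean ratio was 16.3 times larger. Hcn4 and Hcn2 had been seen to differ in opposite directions when chosen, so this separation comes with the choice.

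**Figure D3:**
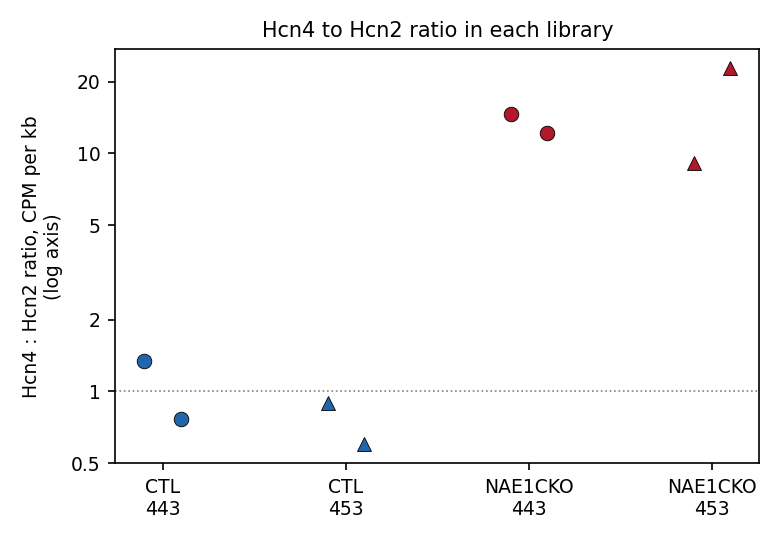
Ratio of Hcn4 to Hcn2 in CPM per kb (log axis) for each library, by genotype and by the number in the library title, with the dotted line at equal levels. The CTL libraries lie between 0.602 and 1.34 and the NAE1CKO libraries between 9.13 and 22.8, under either number.

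The number in the titles crosses the genotype and was not used to choose the genes, so it could be tested. Across genotypes, KO-453 and WT-453 libraries differed from KO-443 and WT-443 libraries by a log2 of 0.34 (SE 0.20) in Hcn2, with an adjusted p of 0.398 by edgeR. The difference was −0.29 (SE 0.30) in Hcn3, adjusted p = 0.669, and 0.10 (SE 0.17) in Hcn4, adjusted p = 0.802. The title number called 1.06% of all genes by edgeR (144 genes, with 2336 at an unadjusted p under 0.05). It called 296 by DESeq2 and 91 by limma-voom. None of the 3 genes was called by the number. For Hcn2 this rests on all libraries, since without KO-453-7 the difference grew to 0.55 and was called.

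Within each number the genotypes kept their order in Hcn4 and Hcn2. Hcn4 was 8.19-fold higher in KO-443 than in WT-443 libraries and 7.44-fold higher in KO-453 than in WT-453 libraries. Hcn2 was 1.57-fold lower in KO-443 than in WT-443 libraries (means of 4.35 and 6.84 CPM) and 2.52-fold lower in KO-453 than in WT-453 libraries (4.28 and 10.8 CPM). The NAE1CKO means of Hcn2 were close, though the KO-453 libraries were the highest and the lowest of NAE1CKO (5.53 and 3.03 CPM). Its CTL means lay further apart, and each of these means rests on 2 libraries.

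The test of whether the genotype difference itself depended on the number (an interaction term) gave a log2 of −0.69 (SE 0.34) for Hcn2, with an adjusted p of 0.565 by edgeR. It gave 0.38 (SE 0.62) for Hcn3, adjusted p = 0.88, and −0.16 (SE 0.39) for Hcn4, adjusted p = 0.935. The interaction called 0.0% of all genes by edgeR (0 genes, with 1307 at an unadjusted p under 0.05), 41 genes by DESeq2 and 0 by limma-voom. Without KO-453-6 the interaction of Hcn2 was −1.18 and passed the threshold, while that of Hcn4 changed sign to 0.04.

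Channel regulators that bind HCN subunits were next read from a list of 20 genes, of which 15 were tested. By edgeR 3 rose, 3 fell and 9 did not pass, with a median log2 fold change of −0.05, against 18.6% higher, 17.6% lower and a median of −0.00 over all genes. Kcne2, a small β subunit that increases HCN current in expression systems, fell from 0.814 to 0.389 CPM (log2 −1.06, adjusted p = 0.0192). The Kcne2 values rest on few reads, 28 counts in all NAE1CKO and 51 in all CTL libraries. Cav1, a caveola scaffold, fell by 0.50 on the log2 scale (adjusted p = 6.7e-05) and Ank3, a membrane anchor protein, by 0.26 (adjusted p = 0.00444). Src, a tyrosine kinase that acts on HCN channels, rose by 0.73 (adjusted p = 0.000637), Flna, an actin crosslinker, by 0.42 (adjusted p = 0.023) and Cltc, the clathrin heavy chain, by 0.35 (adjusted p = 0.00131). Flna was also called by the title number (adjusted p = 0.0342 by edgeR). Cav3, the muscle caveolin, had a log2 fold change of −0.11 (adjusted p = 0.161).

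Genes that supply, remove or bind cyclic AMP, the ligand of the channels, or act on its supply went both ways. Of 31 tested, 9 rose, 8 fell and 14 did not pass, with a median of 0.03 on the log2 scale. That is 29.0% higher and 25.8% lower, against 18.6% and 17.6% of all genes. The rise was led by the adenylyl cyclase Adcy7 (log2 1.33, adjusted p = 2.75e-06 by edgeR) and by Popdc3 (0.88, adjusted p = 5.83e-06) and Bves (0.55, adjusted p = 1.34e-05), which encode cyclic AMP-binding membrane proteins. Chrm2, the cardiac muscarinic receptor, rose by 0.62 (adjusted p = 0.00137). The cyclase Adcy9 fell by 0.57 (adjusted p = 0.000106) and the phosphodiesterases Pde2a and Pde3a by 0.47 and 0.53 (adjusted p = 0.00194 and 0.0159). Pde3a was also called by the title number (adjusted p = 0.0311 by edgeR). Adrb1, the main cardiac β receptor, had a log2 fold change of −0.05 (adjusted p = 0.682).

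Transcription factors and signals of the pacemaker and conduction tissue did not move as 1 group. Of 22 tested, 5 rose, 7 fell and 10 did not pass, with a median of −0.10 on the log2 scale, or 22.7% higher and 31.8% lower against 18.6% and 17.6% of all genes. Tbx3, a repressor of the working myocardial programme in the sinoatrial node, fell from 19.4 to 11.8 CPM (log2 −0.72, adjusted p = 0.000432 by edgeR). Hopx fell by 0.63 (adjusted p = 6.36e-06) and Mef2d by 0.34 (adjusted p = 0.000525), both regulators of cardiomyocyte genes. Bmp4, a growth factor, rose by 1.24 (adjusted p = 0.000631) and Irx5, a repressor of potassium channel genes in ventricle, by 0.38 (adjusted p = 0.000924). Shox2, which is required for the sinoatrial node, was at 1.313 and 1.405 CPM in NAE1CKO and CTL (adjusted p = 0.877), and Isl1 was below the filter with 10 and 8 counts in all.

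REST is a repressor that binds RE1 elements and keeps fetal genes, HCN genes among them, low in mature ventricle. Rest itself was at 58.7 CPM in NAE1CKO and 63.9 in CTL (log2 −0.12, adjusted p = 0.2 by edgeR). In the list of REST, its corepressors and fetal target genes, 2 of 13 rose, 2 fell and 9 did not pass, with a median of −0.03. At 15.4% in each direction this was below the 18.6% higher and 17.6% lower over all genes. Those that rose were the natriuretic peptide genes Nppb (log2 3.41, adjusted p = 0.000753) and Nppa (1.87, adjusted p = 0.000334). Cacna1h, a T-type calcium channel, fell by 0.78 (adjusted p = 5.24e-05) and the deacetylase gene Hdac5 by 0.26 (adjusted p = 0.0199). Most of the 13 genes are REST and its corepressors, so the 15.4% does not describe the fetal targets alone. Of those targets, Nppa, Nppb and Cacna1h were called and Acta1 was not (log2 0.21, adjusted p = 0.455 by edgeR).

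Of 27 genes for the calcium cycling and the other currents of a pacemaker cell, 4 rose, 13 fell and 10 did not pass, with a median of −0.32 on the log2 scale. The list thus had 14.8% higher and 48.1% lower, beside 18.6% and 17.6% of all genes, a difference that was not tested. Ryr2, the calcium release channel, fell from 2322 to 1150 CPM (log2 −1.01, adjusted p = 1.68e-05 by edgeR). Pln and Atp2a2, phospholamban and the calcium pump it restrains, fell by 0.80 each (adjusted p = 1.82e-06 and 2.19e-05). The sodium-calcium exchanger Slc8a1 rose by 0.49 (adjusted p = 5.15e-05).

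Potassium channel subunits, which set the resting potential and repolarize the cell, fell in 14 of 34 (41.2%, against 17.6% of all genes) and rose in 2 (5.88%, against 18.6%), with 18 not passing and a median of −0.26. Kcnip2, a subunit of the transient outward channel, fell from 70.8 to 22.7 CPM (log2 −1.64, adjusted p = 0.000299 by edgeR). Kcnn2, a calcium-activated channel, fell by 0.97 (adjusted p = 8.01e-06) and Kcnj11, the pore of the ATP-sensitive channel, by 0.68 (adjusted p = 1.55e-05). Among the most strongly called were also Kcnj12, an inward rectifier, which fell by 0.62 (adjusted p = 4.3e-05), and Kcnq1, which fell by 0.65 (adjusted p = 4.41e-05). The sulfonylurea receptor Abcc9 fell by 0.45 (adjusted p = 6.25e-05). The 2 that rose were Kcnmb1 (log2 0.91, adjusted p = 0.0029 by edgeR) and Kcne4 (0.81, adjusted p = 0.00639).

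Sodium and calcium channel subunits rose in 3 of 21 (14.3%, against 18.6% of all genes) and fell in 6 (28.6%, against 17.6%), with a median of −0.05. Scn4a fell by 1.58 on the log2 scale (adjusted p = 7.79e-05 by edgeR), and Cacna1c and Cacna1g, an L-type and a T-type calcium channel, by 0.51 each (adjusted p = 0.000329 and 0.00151). Those that rose were the calcium channel genes Cacnb1 (0.61, adjusted p = 0.00659 by edgeR), Cacnb3 (0.51, adjusted p = 0.00554) and Cacna1a (0.44, adjusted p = 0.038). Of 14 other channel genes with a cyclic nucleotide-binding fold, 4 were tested. Kcnh7 rose from 2.03 to 4.95 CPM (log2 1.28, adjusted p = 0.0048 by edgeR) and Kcnh2 fell by 0.32 (adjusted p = 0.00341). Cngb1 and Kcnh1 did not pass, with log2 fold changes of −0.63 and 0.17.

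**Figure D4:**
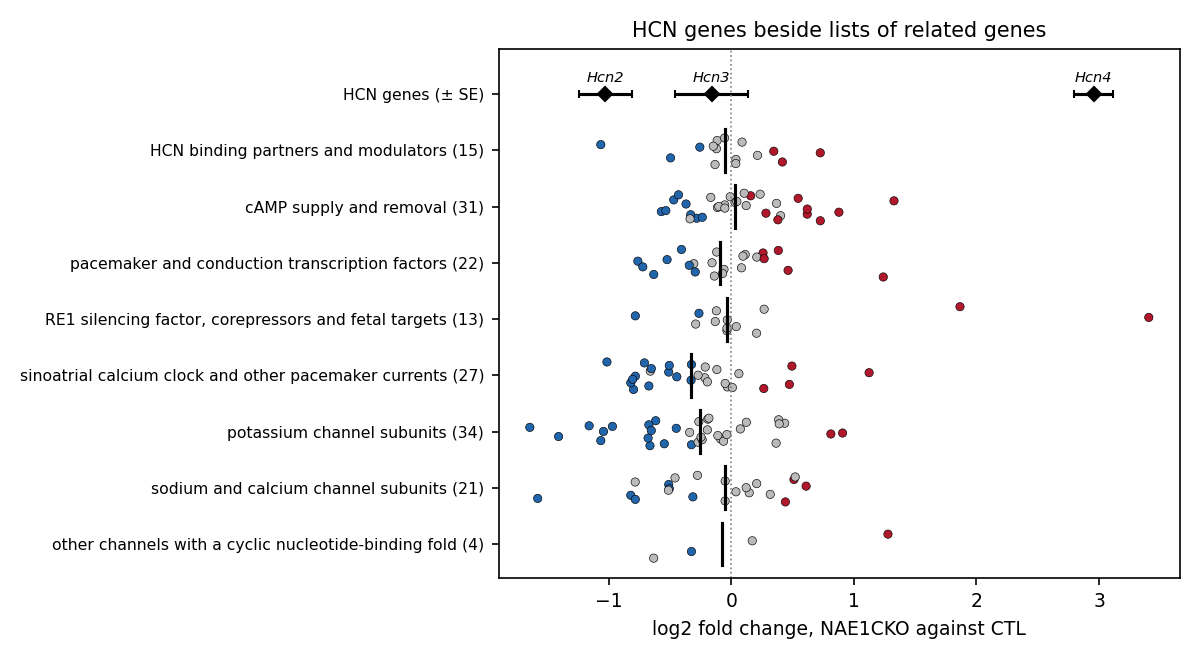
Log2 fold change of NAE1CKO against CTL for Hcn2, Hcn3 and Hcn4 (diamonds ± SE) and for the tested genes of each list (dots, number tested in brackets, some genes in more than 1 list), with list medians as black bars. Red and blue dots are genes called higher and lower by edgeR at an adjusted p under 0.05, and grey dots those not called. The value of 2.96 for Hcn4 exceeds all dots but that of Nppb, 3.41.

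Marker genes of cells that carry HCN channels elsewhere were read beside these values. Counts of called markers here and below stand against 18.6% higher and 17.6% lower over all genes by edgeR. A list of 7 sinoatrial node markers summed to 74.4 to 82.7 CPM in NAE1CKO and 91.7 to 109.8 in CTL, lower in every NAE1CKO library. Tbx3 and Smoc2 of this list fell, Shox2, Tbx18 and Rgs6 did not pass, and Isl1 and Vsnl1 were below the filter. Smoc2 was also called by the title number (adjusted p = 0.00538 by edgeR). Markers of the ventricular conduction system, 7 in all, summed to 252 to 310 and 261 to 303 CPM, with 1 called higher and 3 lower.

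Neuron and glia markers were low, with sums of 7.66 to 9.26 CPM in NAE1CKO and 9.90 to 12.6 in CTL for 10 genes, Chat at 0, 5 others below the filter and 2 called lower. The 8 atrial markers were higher in NAE1CKO by their sum, 918 to 1388 against 513 to 688 CPM. In NAE1CKO most of that sum was Myl4, an atrial and fetal myosin light chain, which rose from 258 to 859 CPM. The higher sum rested on Myl4. Myl7, the next largest, was at 181 CPM in NAE1CKO and 210 in CTL. Nr2f2 also rose, Nr2f1 and Stard10 fell, and Sln, Myl7, Bmp10 and Dkk3 did not pass. Ventricular cardiomyocyte markers were lower, with sums of 57393 to 60733 CPM in NAE1CKO and 64374 to 76408 in CTL. Of these 7 genes, 4 were called lower by edgeR (57.1%, against 17.6% of all genes). The largest difference in CPM was that of Myh6, with 17016 in NAE1CKO and 26420 in CTL. Myh7, the slow myosin heavy chain of this list, went the other way, with 5114 CPM in NAE1CKO and 1975 in CTL (log2 1.37, adjusted p = 0.0757 by edgeR), and was called higher by DESeq2 and limma-voom.

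Of the other cell types, macrophage markers were higher (6 of 6 called, 86.5 to 122 against 54.8 to 62.1 CPM), as were endocardial markers (2 of 3, 252 to 281 against 120 to 165 CPM). Smooth muscle and pericyte markers were lower (3 of 5, 745 to 835 against 926 to 1016 CPM). Of the fibroblast markers 3 of 5 were also called lower, Dcn, Pdgfra and Lum, while their sums overlapped (1169 to 1390 against 1305 to 1506 CPM). Endothelial markers had 1 of 4 called higher and 1 lower, and of the epicardial and erythroid markers 0 were called by edgeR, DESeq2 or limma-voom. Over all tested genes 18.6% were called higher and 17.6% lower by edgeR, and no marker list was tested against these shares. The part of the marker shifts in the HCN values was not tested.

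The coding genes next to these 3 gave no common direction. Hcn2 ends 14 bases from Polrmt, on the opposite strand, which had a log2 fold change of −0.12 (adjusted p = 0.174 by edgeR), and on its other side Bsg fell by 0.33 (adjusted p = 0.00584). Beside Hcn4, Neo1 fell by 0.28 (adjusted p = 0.00467), and Rec114, with 50 and 10 counts in NAE1CKO and CTL, was not tested. Beside Hcn3, Fdps rose by 0.43 (adjusted p = 0.0138) and Clk2 had a log2 fold change of 0.08 (adjusted p = 0.455).

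As a description, the tested genes whose log2 CPM followed each HCN gene most closely over the 8 libraries were named by Pearson's r, which the genotype difference itself raises. For Hcn4 these were Uba1, which encodes the ubiquitin-activating enzyme (r = 0.997), then Slco3a1, St3gal5, Thbs4 and Actn1, down to 0.992. For Hcn2 they were A530016L24Rik (r = 0.996), Rmdn1, Chpt1, Perm1 and Lrpprc, down to 0.989. For Hcn3, with its low counts, they were Prdm6 (r = 0.906), Bloc1s6, Poli, Mgst3 and Ube2v1, down to 0.870. With the group means removed, r was 0.914 for Uba1, and for the other 4 genes named with Hcn4 it was lower, 0.768 for Slco3a1, 0.654 for St3gal5, 0.690 for Thbs4 and 0.738 for Actn1. For the 5 genes named with Hcn2 it ran from 0.970 to 0.987, and for the 5 named with Hcn3 from 0.878 to 0.936. The named genes were picked for the highest r among 13622 tested genes over 8 libraries, so high values come with the choice. The points share libraries and scaling.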

How the data were processed

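RNA of ventricles from 4 NAE1CKO and 4 CTL mice was used, 1 library each. The deposited values are raw read counts for Ensembl genes. The submitters' processing notes name bcl2fastq, Subread, featureCounts 1.4.5 and STAR 2.0.4b, and the sources used here give neither build nor annotation nor whether strand was used. Of 41264 lines, 574 repeated a gene and were dropped. Groups came from titles and genotype labels. Replicates differed beyond sampling noise (chi-square per gene 4.03 to 67.2). Pairs with WT-453-5 gave 59.5 to 67.2, and the other pairs 4.03 to 16.5.

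Counts were analysed in R 4.3.3 with edgeR 4.0.16 (filterByExpr, TMM, robust quasi-likelihood test, Benjamini-Hochberg adjustment over 13622 genes). Standard errors are the log2 fold change divided by the root of F. Alternatives used DESeq2 1.42.0, limma 3.58.1 (voom), other scalings and filters, and each library left out. Log2 CPM for correlations had a prior count of 2. Lengths and positions came from GENCODE M21 on GRCm38. Code was tested on simulated data.

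The members and gene lists were chosen with earlier results of these data known. Named list genes were up to 6 with the smallest adjusted p and up to 2 further genes of high CPM, and others were named after their values were seen. Some items are not reported here.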

Additional observations from a re-analysis of the deposited data

How the results depend on the processing

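Over the alternatives run, the log2 fold change ranged from 2.83 to 3.09 for Hcn4 and from −1.16 to −0.89 for Hcn2, as a description of genes chosen from this contrast. It ranged from −0.37 to −0.01 for Hcn3, and with at least 1 CPM required in 4 libraries Hcn3 could not be fitted. Counts of called genes were 2537 higher and 2401 lower. They were 996 and 758 with a 1.5-fold change also required, 1486 lower at an adjusted p under 0.01, and 1532 lower when scaled by library size alone, which put 67.5% of calls on the higher side against 51.4% and moved the median of all genes to 0.08. Leaving out 1 library gave 2216 to 2478 higher and 2051 to 2236 lower.

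Whether the title numbers pair the libraries was not settled. Deviations of libraries of the same number correlated at −0.07 to 0.30, most of them positive. Those of different numbers correlated at −0.22 to 0.13, most of them negative. The main genotype fit left the title number out. With the title number as replicate block, 2794 genes were higher and 2713 lower, against 2537 and 2401 in the main fit.

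Leaving out 1 library, the title number difference ranged from 0.23 to 0.55 for Hcn2, −0.50 to −0.11 for Hcn3 and −0.028 to 0.23 for Hcn4, and the interaction from −1.18 to −0.31, −0.042 to 0.99 and −0.49 to 0.14. Of these, the interaction turned in sign without KO-443-3 for Hcn3 and without KO-453-6, WT-443-8 or WT-453-3 for Hcn4, and the Hcn4 number difference without KO-453-7. The cause was not tested. Divided by coding length, Hcn4 was 51.7% and Hcn2 43.7% in CTL, the reverse of the order with merged exons. Not divided by length, Hcn4 was 95.6% and 59.9% and Hcn2 3.77% and 36.6% of the 3 genes' counts in NAE1CKO and CTL. Another set of genes for the shares was not run. Of the 5 genes most like each of Hcn2, Hcn3 and Hcn4, 0, 0 and 0 were shared by Spearman's rho and 0, 1 and 0 with group means removed. Leaving out 1 library, 2 to 4, 0 to 2 and 1 to 2 were shared, so these genes depend on single libraries. Depth limits Hcn3, which had 9 to 19 counts per library.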
